A study of Homo sapiens with 8 samples.

Results

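The 10 genes described here, DUSP4, DUSP5, DUSP6, SPRY2, SPRY4, SPRED1, ETV4, ETV5, PHLDA1 and FOSL1, are transcribed in response to ERK signalling, and several of them encode proteins that dampen it. They were chosen by symbol and not by a measured threshold, with earlier results of these data known, as 10 of the 63241 gene rows in the deposited tables. All 10 matched a single Ensembl identifier. All 10 also passed the filter for testing, 2 or more libraries at 1 FPKM or above, which 15173 genes passed, although DUSP4 reached that level in only 3 of the 8 libraries.

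Messenger RNA was sequenced in HepG2 and Huh7, established human liver cancer cell lines, as parental sensitive cells (WT, labelled control) and as sorafenib-resistant cells (SR, labelled sorafenib). The 4 groups, HepG2 WT and HepG2 SR on one side and Huh7 WT and Huh7 SR on the other, had 2 libraries each. SR cells were derived from each line by exposure to increasing sorafenib, and neither the labels nor the methods say whether the drug was in the medium at harvest or whether the SR cells are single clones. The labels give 1 batch for all 8 libraries and do not say that replicates were separate cultures, so p-values measure the spread between these libraries, which may be technical.

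In the RAS-RAF-ERK cascade, growth factor receptors load RAS with GTP, RAS recruits RAF kinases, RAF phosphorylates MEK, and MEK phosphorylates ERK. Active ERK phosphorylates transcription factors in the nucleus and so drives a set of genes whose products include phosphatases that strip ERK of its phosphates, Sprouty and SPRED proteins that act on RAS and RAF, and transcription factors of the ETS and AP-1 families. Sorafenib inhibits RAF kinases among others, and the levels of these transcripts are commonly read as a record of recent ERK output. The question was how they stood in WT and SR cells of both lines.

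The libraries did not cluster by the cell line on their label, yet the labels set every comparison below. Correlation of log2(FPKM + 1) over genes (Pearson's r) lay between 0.914 and 0.977 among 5 libraries, namely both of HepG2 WT, the first of HepG2 SR and the second of Huh7 WT and of Huh7 SR. The first libraries of Huh7 WT and Huh7 SR correlated with each other at 0.965 and with those 5 at 0.731 to 0.783. HepG2 SR replicate 2 stood at an r of 0.775 to 0.819 with the 5 and of 0.815 to 0.846 with the other two. Genes are not independent replicates, and these values describe the libraries only. The hepatocyte markers summed to between 4408 and 7535 FPKM in HepG2 libraries and between 633.6 and 5119 FPKM in Huh7 libraries, with 8 or 9 of 9 at 1 FPKM or more in each library and 0 listed at 0. Their sum was higher in SR in all 4 same-numbered pairs, and ALB alone averaged 2648 FPKM in HepG2 WT and 3790 FPKM in HepG2 SR. Of the 9 markers 2, ALB and AFP, were higher in all 4 pairs, as 9.16% of all genes tested were. In SR, 4 and 3 of the 9 were lower in the HepG2 pairs and 2 and 0 in the Huh7 pairs. The median log2 fold change of SR versus WT over the 9 markers was 0.50 in HepG2 with 7 positive, 1.46 in Huh7 with 9 positive and 0.81 in the average with 9 positive, and the transcription factor HNF4A was the 1 called, in Huh7 (0.96), where 6 of the 8 fits that leave out a library lost the call. Of the 4 biliary markers, whose sum ran from 15.5 to 904 FPKM, 3 had a negative value in HepG2 and in the average and 1 in Huh7. KRT19, a biliary keratin, was at 0.179 FPKM in HepG2 SR replicate 2, at 1.78 and 2.37 FPKM in the Huh7 libraries of replicate 1, and between 155 and 760 FPKM in the other 5. SOX9, from the same list, did not follow it, with 54.1 FPKM in HepG2 SR replicate 2 and between 3.76 and 78.4 FPKM in the other libraries. KRT7, a further keratin of that list, had all 4 SR libraries (0 to 0.472 FPKM) below all 4 WT libraries (0.551 to 4.75 FPKM), as 2.17% of all genes tested had. VIM, the mesenchymal filament vimentin, was at 536 FPKM in HepG2 SR replicate 2 and between 0.211 and 7.02 FPKM in the rest. The 3 leukocyte markers summed to between 4.17 and 29.1 FPKM, nearly all of it CD68 and CD14, while PTPRC, the pan-leukocyte antigen, did not exceed 0.0258 FPKM and was listed at 0 in 6 libraries. The part of these differences in the results was not tested, and values without the 3 libraries that stand apart are given where they change a call. In bulk RNA, fewer cells of a type and less RNA per cell cannot be told apart.

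Upstream sequence was looked up for the 10 genes in RefSeq (GRCh38.p14), where 5 of them matched with 7 start sites, since SPRY2 has 3. The 250 bases before each start were searched on both strands for the ETS motif CCGGAA, the AP-1 motif TGANTCA, the cAMP response element TGACGTCA and the CArG box bound by serum response factor. No search motif overlaps another by construction. The ETS motif was found in 2 of the 7 windows, those of SPRY2 and PHLDA1, against 14.5% of 35116 RefSeq windows of the same length. The other 3 motifs, found in 6.57%, 1.65% and 1.16% of all windows, were in 0 of the 7. A match is a description of letters and not evidence of binding. The sequences below are shown because they hold these matches in a member, or in EGR1 and AREG, which are described further on. They are written 5′ to 3′ on the strand of the gene, with the motif in capitals. In the SPRY2 window, chr13:80341127-80341376 on the minus strand, the motif begins 142 bases before the start.
SPRY2: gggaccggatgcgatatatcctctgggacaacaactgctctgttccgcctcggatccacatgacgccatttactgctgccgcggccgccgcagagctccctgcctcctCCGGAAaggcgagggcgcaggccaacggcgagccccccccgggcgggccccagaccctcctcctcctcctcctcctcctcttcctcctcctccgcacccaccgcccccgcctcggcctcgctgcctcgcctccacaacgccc
The PHLDA1 site, chr12:76031850-76031875 on the minus strand, lies 89 bases before the start and reads as the reverse complement of the motif. Only the site is printed, since its window overlaps annotated exon sequence.
PHLDA1: ggagaggagtTTCCGGggctcgggtc
The EGR1 window, chr5:138465229-138465478 on the plus strand, holds CArG boxes 105 and 83 bases before the start, a motif through which serum and ERK signalling induce this gene.
EGR1: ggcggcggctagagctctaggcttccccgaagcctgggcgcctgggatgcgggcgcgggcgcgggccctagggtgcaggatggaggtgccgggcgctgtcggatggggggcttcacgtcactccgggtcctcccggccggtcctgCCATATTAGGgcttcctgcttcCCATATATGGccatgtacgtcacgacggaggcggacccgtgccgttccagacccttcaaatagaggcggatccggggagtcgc
The AREG window holds the ETS motif 236 bases before the start, chr4:74444890-74444915 on the plus strand, and a cAMP response element 65 bases before it, chr4:74445061-74445088. They are printed as sites in this order.
AREG ETS: ggtactagctCCGGAActccagtcct
AREG CRE: ggccgggcctTGACGTCAtgggctgcgg

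Values are in FPKM, fragments scaled to transcript length and library size, which already account for depth and length. Read counts could not be recovered from these values, so the depth behind them is unknown. SR was compared with WT by limma on log2(FPKM + 1), a scale that shrinks the changes of low genes. A gene was called at the study's thresholds, a log2 fold change of 0.5 or more, or below -0.5, with an unadjusted p under the limit of 0.05. Of the 10 genes, 0 were called in HepG2 SR versus HepG2 WT, where 2.14% of all genes tested were. In Huh7 SR versus Huh7 WT, 0 of 10 were called, against 1.87% of all genes. In SR versus WT averaged over the cell lines 1 of 10 was called, FOSL1, which was lower, against 3.93% of all genes called and 2.03% called lower. After Benjamini-Hochberg adjustment over all genes in limma, 0 of the 15173 genes passed at 0.05 in any of these comparisons, with 325, 283 and 597 at an unadjusted p under 0.05.

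**Figure D1:**
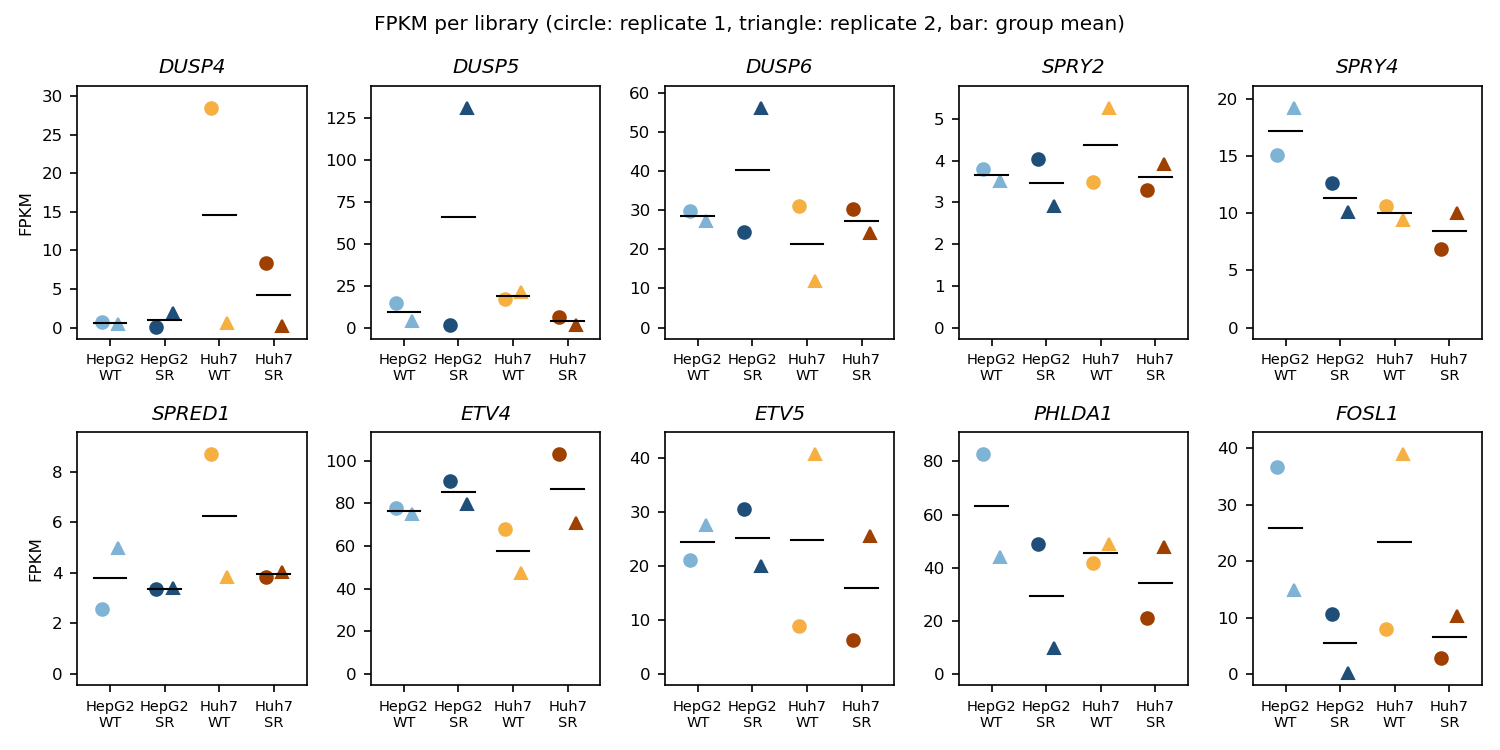
FPKM (y axis, linear) of the 10 genes in the 4 groups (x axis), with circles for replicate 1, triangles for replicate 2 and bars for group means. DUSP5 in HepG2 SR stands at 1.32 and 131 FPKM, while SPRY2 stays between 2.91 and 5.26 FPKM in all 8 libraries.

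DUSP4, DUSP5 and DUSP6 encode dual-specificity phosphatases that remove the activating phosphates from MAP kinases. DUSP6 resides in the cytoplasm and DUSP4 and DUSP5 in the nucleus. DUSP6 and DUSP5 act chiefly on ERK.

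DUSP6 (ENSG00000139318, chromosome 12, 89347232 to 89353271, minus strand of GRCh38) was abundant in all groups. It had 29.8 and 27.1 FPKM in the HepG2 WT libraries against 24.5 and 56.1 FPKM in the SR libraries (replicates 1 and 2 in this order throughout). The Huh7 WT libraries had 30.9 and 11.9 FPKM against 30.4 and 24.1 FPKM in their SR counterparts. The highest library was HepG2 SR replicate 2 and the lowest Huh7 WT replicate 2, and WT and SR overlapped in both lines. The log2 fold change was 0.37 (standard error 0.56) in HepG2 and 0.47 (standard error 0.56) in Huh7, both within the spread between replicates. Without the 3 libraries that stand apart DUSP6 was called higher in Huh7 (0.96, adjusted p = 0.419 from limma). DUSP6 shares exons with the antisense gene AC024909.2, and strand use in the counting is not stated.

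DUSP5 (ENSG00000138166, chromosome 10, 110497838 to 110511544, plus strand) differed most between replicates. It had 14.9 and 4.06 FPKM in the HepG2 WT libraries against 1.32 and 131 FPKM in the SR libraries, so the lowest and the highest of all 8 libraries were the replicates of 1 group. Values in Huh7 WT were 17.0 and 21.3 FPKM (mean 19.1 ± 3.05, SD, n = 2) against 6.28 and 1.36 FPKM in SR (3.82 ± 3.48, SD, n = 2), without overlap. The share of all genes that separate SR from WT within 1 line was not computed, so such separation is description only. The pooled spread is set largely by HepG2 SR, and the value from limma was 0.97 on the log2 scale (standard error 1.73) in HepG2 and -2.27 (standard error 1.73) in Huh7, neither of which was called. With the 3 libraries that stand apart left out, a setting in which single libraries stand for 3 of the groups and are assumed to vary like HepG2 WT, DUSP5 was called lower in Huh7 (-3.24, adjusted p = 0.416 from limma) and in the average (-2.59, adjusted p = 0.471), and was -1.95 in HepG2 without a call. That fit called 3.12% of all genes in HepG2, 11.7% in Huh7 and 9.48% in the average. DUSP5 is among the genes the study picked from these libraries, so its direction in them is not independent evidence.

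DUSP4 (ENSG00000120875, chromosome 8) was scarce outside the Huh7 libraries of replicate 1. It had, in FPKM, 0.765 and 0.401 (HepG2 WT), 0.107 and 1.87 (HepG2 SR), 28.5 and 0.627 (Huh7 WT) and 8.35 and 0.139 (Huh7 SR). The 3 libraries at 1 FPKM or more were those that stand apart in the whole profile. DUSP4 had a change of 0.18 in log2 (standard error 1.49) in HepG2 and of -1.09 (standard error 1.49) in Huh7, and neither was called. It was lower in SR in 3 of the 4 same-numbered pairs. Without those 3 libraries its averaged change was -0.51. All libraries left are below 1 FPKM for DUSP4, so it passed the filter only through those left out, and the value is not a test.

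SPRY2, SPRY4 and SPRED1 encode membrane-associated inhibitors of receptor signalling to RAS and RAF, and SPRED1 acts by bringing the RAS inactivator neurofibromin to the membrane. Their transcripts moved little compared with those of the phosphatases DUSP4 and DUSP5. SPRY2 (ENSG00000136158, chromosome 13, 80335976 to 80340951, minus strand), whose upstream sequence is printed above, had the narrowest range of the 10 genes, 1.81-fold between its highest and lowest libraries. It had, in FPKM, 3.80 and 3.50 (HepG2 WT), 4.03 and 2.91 (HepG2 SR), 3.47 and 5.26 (Huh7 WT) and 3.29 and 3.92 (Huh7 SR). WT and SR overlapped in both lines, with a log2 fold change of -0.07 (standard error 0.37) in HepG2 and -0.20 (standard error 0.37) in Huh7.

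SPRY4 (ENSG00000187678, chromosome 5, 142310427 to 142326455, minus strand) had 15.1 and 19.2 FPKM in the HepG2 WT libraries (17.1 ± 2.89, SD, n = 2) against 12.6 and 10.1 FPKM in the SR libraries (11.3 ± 1.80, SD, n = 2). In HepG2 both SR libraries were below both WT libraries, a separation whose share over all genes was not computed. In Huh7 the values were 10.6 and 9.40 FPKM in WT and 6.861 and 10.003 FPKM in SR, which overlapped. The log2 fold change was -0.56 (standard error 0.35) in HepG2 and -0.24 (standard error 0.35) in Huh7, and neither was called.

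SPRED1 (ENSG00000166068, chromosome 15, 38252326 to 38357249, plus strand) had 2.57 and 4.99 FPKM in the HepG2 WT libraries against 3.37 and 3.38 FPKM in the SR libraries. In Huh7, WT libraries had 8.68 and 3.85 FPKM against 3.85 and 4.02 FPKM in their SR counterparts. The SR libraries lay close together in both lines while the WT libraries were spread around or above them. Its log2 fold change was -0.08 (standard error 0.46) in HepG2 and -0.47 (standard error 0.46) in Huh7.

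**Figure D2:**
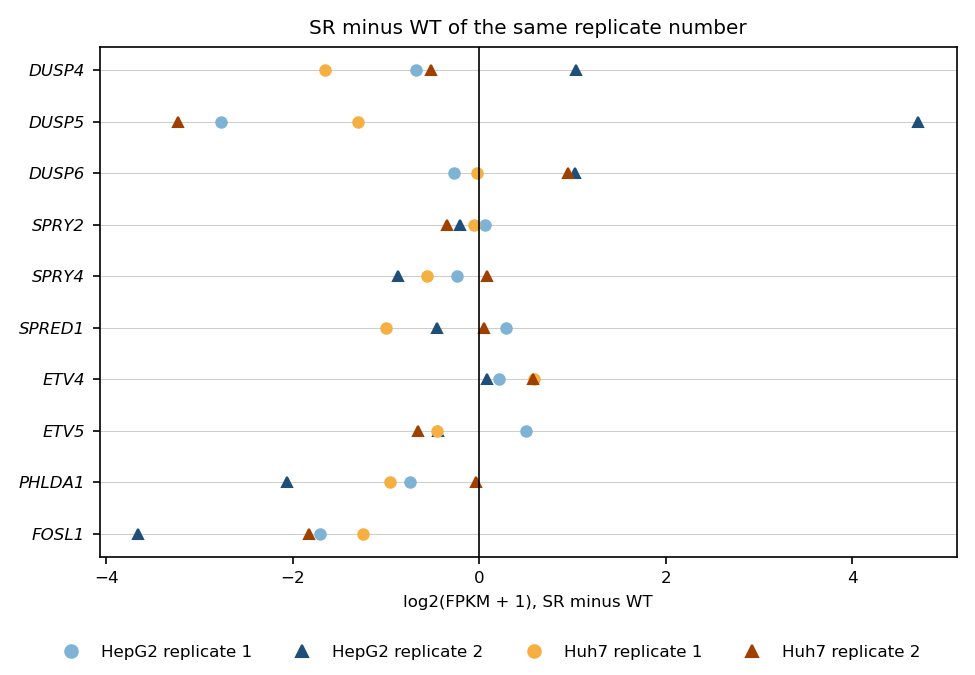
Difference in log2(FPKM + 1) between SR and WT libraries of the same cell line and replicate number (x axis) for each of the 10 genes (y axis), with circles for replicate 1 and triangles for replicate 2. FOSL1 and PHLDA1 lie below 0 and ETV4 above 0 in all 4 pairs, and DUSP5 spans -3.24 to 4.71.

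ETV4 and ETV5 encode ETS transcription factors of the PEA3 group, which are induced by FGF and ERK signalling and whose proteins bind motifs of the kind printed above for SPRY2. ETV4 (ENSG00000175832, chromosome 17, 43527844 to 43579620, minus strand) had the highest median of the 10 genes, 76.5 FPKM. It had 77.8 and 75.3 FPKM in the HepG2 WT libraries against 90.5 and 80.0 FPKM in the SR libraries. For Huh7, WT values were 68.3 and 47.3 FPKM (57.8 ± 14.8, SD, n = 2) against 103 and 71.0 FPKM in SR (87.0 ± 22.6, SD, n = 2). Both SR libraries were above both WT libraries in each line, a separation whose share over all genes was not computed. ETV4 alone of the 10 genes was higher in SR in all 4 same-numbered pairs, as 9.16% of all genes were. The log2 fold change was 0.15 (standard error 0.34) in HepG2 and 0.58 (standard error 0.34) in Huh7, and neither was called. With quantile normalization the HepG2 value was -0.012. ETV4 shares exons with DHX8 on the opposite strand, between which unstranded reads could not be told apart.

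ETV5 (ENSG00000244405, chromosome 3, 186046308 to 186110318, minus strand) had 21.2 and 27.5 FPKM in the HepG2 WT libraries against 30.5 and 20.0 FPKM in the SR libraries. The Huh7 WT libraries had 8.89 and 40.7 FPKM against 6.22 and 25.5 FPKM in their SR counterparts. The Huh7 libraries of replicate 1 were the lowest of the 8, and WT and SR overlapped in both lines. The log2 fold change was 0.03 (standard error 0.83) in HepG2 and -0.55 (standard error 0.83) in Huh7. ETV5 shares exons with DGKG on the same strand, so its level is uncertain where reads could have been split.

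PHLDA1, a pleckstrin homology-like domain protein induced by ERK, and FOSL1, the FRA1 subunit of the AP-1 transcription factor, were lower in SR in all 4 same-numbered pairs. These 2 of 10 genes compare with 12.4% of all genes tested that were lower in all 4 pairs. The count was 3 after rescaling every library to a common sum and 1 after quantile normalization, against 16.95% and 10.41% of all genes tested.

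FOSL1 (ENSG00000175592, chromosome 11, 65892049 to 65900573, minus strand) had 36.8 and 14.9 FPKM in the HepG2 WT libraries (25.8 ± 15.5, SD, n = 2) against 10.6 and 0.260 FPKM in the SR libraries (5.43 ± 7.31, SD, n = 2). Values in Huh7 WT were 8.02 and 38.9 FPKM (23.5 ± 21.9, SD, n = 2) against 2.81 and 10.3 FPKM in SR (6.54 ± 5.28, SD, n = 2). In HepG2 both SR libraries were below both WT libraries, whereas in Huh7 SR replicate 2 exceeded WT replicate 1. How many of all genes separate in this way within HepG2 was not computed. The same-numbered differences were -1.70 and -3.66 in HepG2 and -1.24 and -1.82 in Huh7 on the log2(FPKM + 1) scale.

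Averaged over the cell lines, FOSL1 fell by 2.11 on the log2 scale (standard error 0.86, adjusted p = 0.998 from limma). Within the lines it had log2 fold changes of -2.68 (standard error 1.21) in HepG2 and -1.53 (standard error 1.21) in Huh7, and neither was called. With the replicate number as a block within each line, FOSL1 was called lower in HepG2 (adjusted p = 0.527 from limma), in Huh7 (adjusted p = 0.921) and in the average (adjusted p = 0.471). That fit called 9.17%, 4.41% and 9.95% of all genes in these comparisons. The labels do not give this pairing, and in HepG2 the deviations of same-numbered libraries correlated at only 0.125. Without HepG2 SR replicate 2 the averaged change of FOSL1 was -1.31 without a call, and without HepG2 WT replicate 1, HepG2 WT replicate 2, Huh7 WT replicate 2 or Huh7 SR replicate 1 the call was also lost, at -1.80, -2.42, -1.57 and -1.72. Without all 3 libraries that stand apart it was -1.45 and was called (adjusted p = 0.494 from limma).

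PHLDA1 (ENSG00000139289, chromosome 12, 76025447 to 76033932, minus strand) had 82.6 and 44.1 FPKM in the HepG2 WT libraries against 49.0 and 9.78 FPKM in the SR libraries. In Huh7, WT libraries had 41.7 and 49.0 FPKM against 21.1 and 47.7 FPKM in their SR counterparts. The lowest library was HepG2 SR replicate 2, and WT and SR overlapped in both lines. The log2 fold change was -1.40 (standard error 0.77) in HepG2, -0.50 (standard error 0.77) in Huh7 and -0.95 (standard error 0.54) in the average, none of them called. With the replicate block PHLDA1 was called lower in HepG2 (adjusted p = 0.527 from limma) and in the average (adjusted p = 0.471). Without HepG2 SR replicate 2 the HepG2 value was -0.30, and without the 3 libraries that stand apart the average was -0.17. PHLDA1 shares exons with the antisense genes AC011611.3 and AC011611.4.

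**Figure D3:**
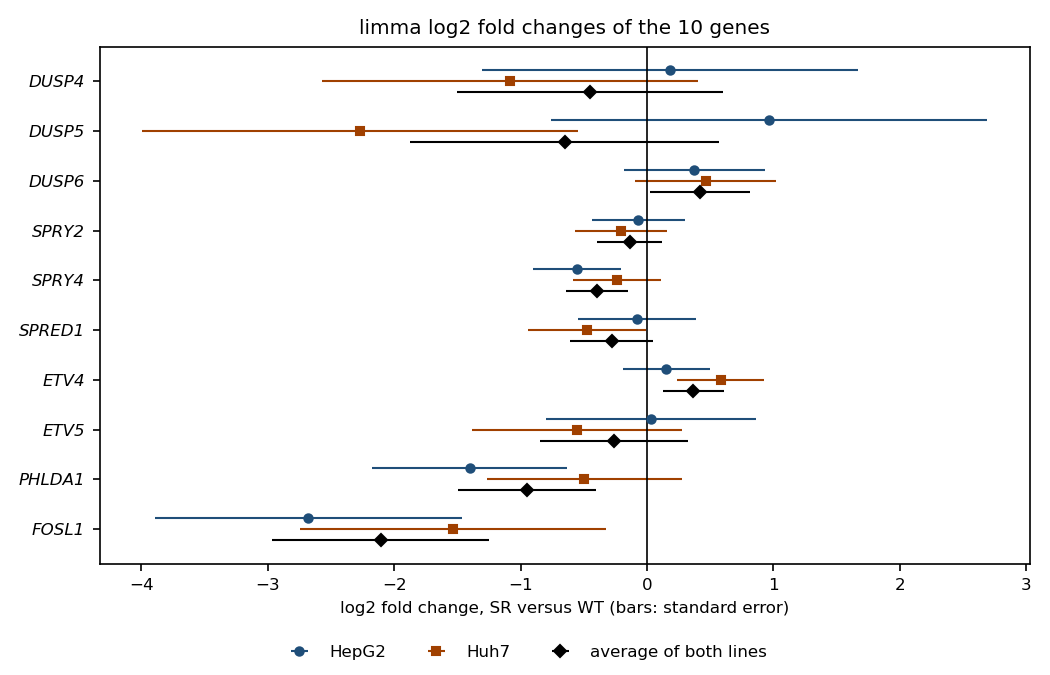
log2 fold change of SR versus WT from limma (x axis, bars are standard errors) for the 10 genes in HepG2, in Huh7 and averaged over both lines. FOSL1 has the lowest averaged value, -2.11, and the widest bars are those of DUSP5, with a standard error of 1.73 in each line.

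Over the 10 genes the median log2 fold change was -0.02 in HepG2, where 5 values were negative, -0.48 in Huh7 with 8 negative, and -0.34 in the average with 8 negative. Over all genes tested the medians were -0.03, -0.05 and -0.05, with 7913, 8394 and 8353 of 15173 negative. In the same-numbered pairs the median of the 10 genes was -0.26 and -0.32 in HepG2 and -0.76 and -0.19 in Huh7, and 6, 6, 9 and 6 of the 10 were lower in SR. Over all genes tested these medians were 0.00, -0.05, 0.00 and -0.11, and 7466, 7999, 7388 and 8673 of 15173 were lower. All 4 SR libraries lay below all 4 WT libraries for 0 of the 10 genes and above them for 0 of the 10, compared with 2.17% and 1.52% of all genes tested. The difference between the lines in SR versus WT, tested as an interaction, was called for 0 of the 10 genes, against 0.606% of all genes. Its largest value in size was that of DUSP5, -3.24 for Huh7 minus HepG2 (standard error 2.44).

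Between the lines, WT and SR together, 0 of the 10 genes were called in Huh7 versus HepG2, against 4.90% of all genes. SPRY4 came closest at -0.56 in log2 (standard error 0.25), for which limma gave an adjusted p = 0.813. DUSP4 had the largest difference, 1.51 (standard error 1.05), which rests on the Huh7 libraries of replicate 1.

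The kinases and adaptors of the cascade itself were next compared, as a list of 21 genes of which all were tested. PEBP1, a RAF kinase inhibitor protein, was the 1 of 21 called in Huh7, where it rose from WT values of 123 and 99.6 FPKM to SR values of 222 and 390 FPKM (1.40, standard error 0.47). Its call was lost without the second Huh7 WT library (1.25) or the second Huh7 SR library (0.997). In the average 0 of 21 were called. Of all genes tested 1.87% were called in Huh7 and 3.93% in the average. KSR1, a scaffold of the cascade, was called lower with the replicate block in HepG2 (-1.85) and in the average (-1.34). The block called 5.85% of all genes lower in HepG2 and 9.95% in the average, higher or lower. Without the 3 libraries that stand apart, KSR1 (-1.18) and the kinase ARAF (-1.04) were called lower and PEBP1 (1.96) higher in Huh7, and KSR1 (-0.87) lower and PEBP1 (1.11) higher in the average. Shares of all genes called in that fit are given with DUSP5 above. The kinases BRAF and MAPK3 (ERK1) had log2 fold changes of 0.32 and -0.22 in HepG2 and of -0.62 and 0.29 in Huh7, without a call. The guanine nucleotide exchange factor SOS2, named after its values were seen, was the only one of the 21 with all 4 SR libraries (2.61 to 5.63 FPKM) below all 4 WT libraries (5.70 to 9.09 FPKM). This held for 2.17% of all genes tested.

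Of 9 other feedback genes 7 were tested. RASA2, a GTPase-activating protein that switches RAS off, was the 1 gene of 7 called in HepG2 and in the average. Of all genes tested 2.14% and 3.93% were called in these comparisons. RASA2 fell in HepG2 by 1.07 (standard error 0.38) and in the average by 0.83 (standard error 0.27) on the log2 scale. It had, in FPKM, 6.19 and 7.01 (HepG2 WT), 2.997 and 2.279 (HepG2 SR), 7.03 and 4.48 (Huh7 WT) and 2.78 and 4.15 (Huh7 SR). All SR libraries were below all WT libraries, as for 2.17% of all genes tested. In Huh7 0 of 7 were called, but 3 were called higher without the 3 libraries that stand apart, the phosphatase DUSP9 (1.05), the EGF receptor inhibitor ERRFI1 (1.72) and SPRY1 (1.26). DUSP9 was also called higher in Huh7 with the replicate block (1.36) and in the average with the block (0.71), and in Huh7 2 of 7 were called higher without Huh7 SR replicate 1 and 1 without Huh7 WT replicate 2. In the average without the 3 libraries that stand apart, DUSP9 (0.87) and ERRFI1 (0.67) were called higher and 0 lower. Shares of all genes called in that fit are given with DUSP5 above, and the block called 4.41% in Huh7 and 9.95% in the average. DUSP1, another MAP kinase phosphatase and named after its values were seen, was lower in all 4 pairs, as 12.4% of all genes tested were. Its averaged value was -1.02 (standard error 0.46), and it was called lower with the replicate block (adjusted p = 0.471 from limma), as it was in HepG2 (-1.46). Without the 3 libraries that stand apart, RASA2 was -0.51 in the average and was not called. The call in HepG2 was lost without either HepG2 WT library or HepG2 SR replicate 2 (-1.15 to -0.93), and that in the average also without the first library of Huh7 WT or of Huh7 SR (-0.87 to -0.69).

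**Figure D4:**
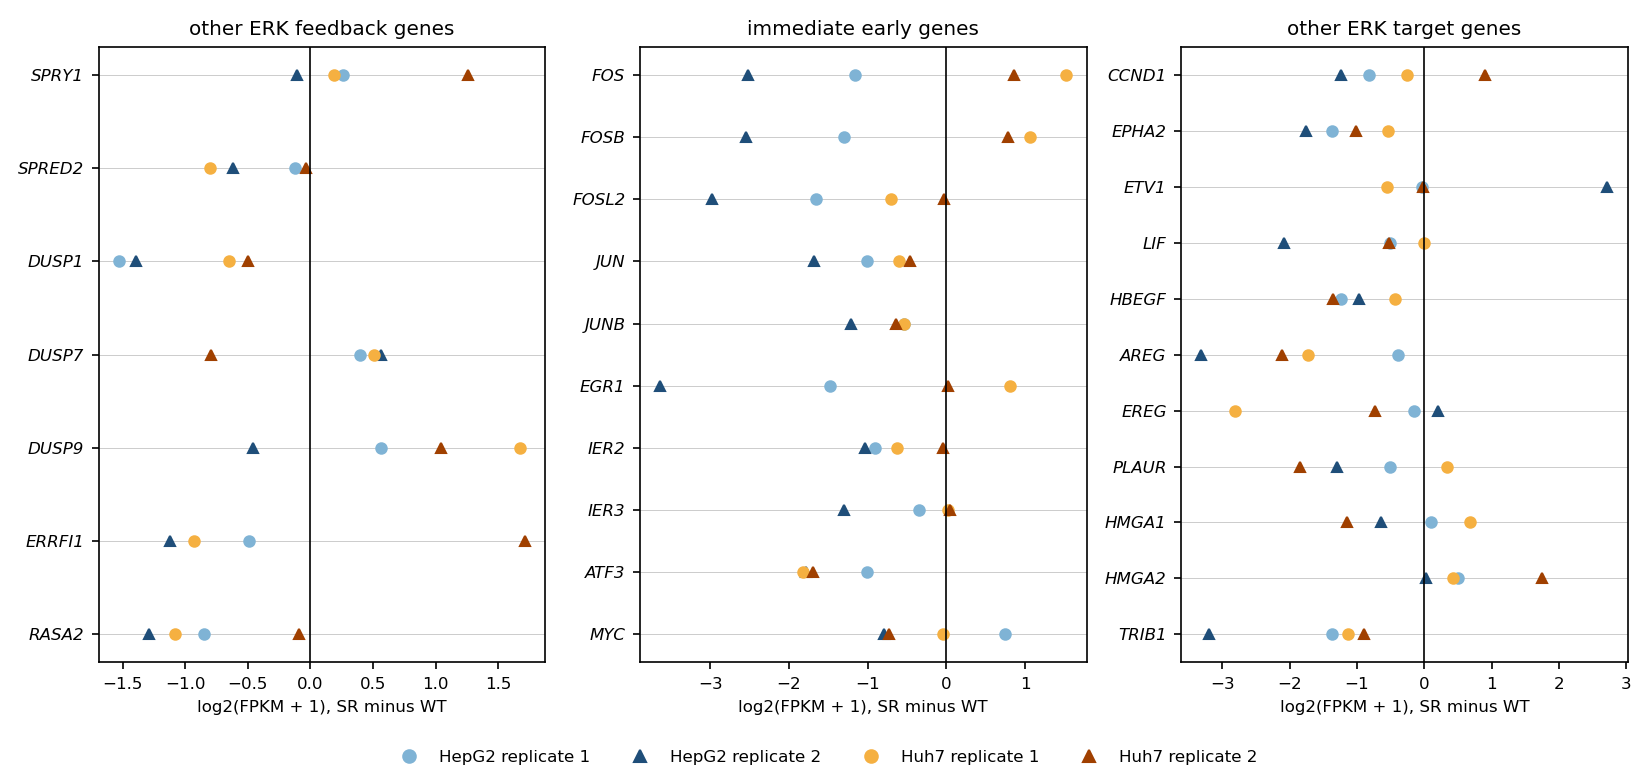
Difference in log2(FPKM + 1) between SR and WT libraries of the same cell line and replicate number (x axis) for the tested genes of 3 pathway lists (y axis), circles for replicate 1 and triangles for replicate 2. FOS, FOSB, EGR1 and IER3 lie below 0 in both HepG2 pairs and above 0 in both Huh7 pairs, and ATF3 lies below -1 in all 4.

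Immediate early genes are transcribed within minutes of ERK activation. Of 12 such genes 10 were tested, and in HepG2 all 10 had a negative log2 fold change, with a median of -1.37 against -0.03 over all genes. The 3 genes called there, against 2.14% of all genes tested, were all lower. They were EGR1, a zinc finger factor (-2.56, standard error 0.88), FOSL2, the FRA2 subunit of AP-1 (-2.32, standard error 0.85), and IER2 (-0.97, standard error 0.40). EGR1 fell from 23.5 and 31.4 FPKM in HepG2 WT to 7.76 and 1.61 FPKM in HepG2 SR. FOSL2 fell from 25.7 and 15.1 FPKM to 7.47 and 1.05 FPKM. With the replicate block 8 of the 10 were called lower in HepG2, where 5.85% of all genes were. Without HepG2 SR replicate 2 the median was -0.90 and 0 were called, whereas without all 3 libraries that stand apart the median was the same and 3 were called lower, EGR1, FOS and FOSB. EGR1 and FOSL2 also lost their calls without either HepG2 WT library, with values of -2.76 and -2.35 and of -1.95 and -2.68, and IER2 kept its call only without a Huh7 WT library.

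In Huh7 0 of the 10 immediate early genes were called, with a median of -0.35. The replicate block called FOS higher and ATF3 lower there, and without the 3 libraries that stand apart ATF3 was called lower. FOS, the AP-1 subunit itself, had, in FPKM, 30.1 and 30.7 (HepG2 WT), 13.0 and 4.54 (HepG2 SR), 20.4 and 1.68 (Huh7 WT) and 60.5 and 3.87 (Huh7 SR). Its values were thus lower in SR in both HepG2 pairs and higher in both Huh7 pairs, with log2 fold changes of -1.84 (standard error 1.36) and 1.19 (standard error 1.36) that were not called. In the average 1 of the 10 was called, against 3.93% of all genes tested. This was ATF3, a stress-responsive factor of the ATF family, which fell by 1.58 (standard error 0.62). With the replicate block 6 of the 10 were called lower in the average, ATF3, EGR1, FOSL2, IER2, JUN and JUNB, and without the 3 libraries that stand apart 2 were, ATF3 and EGR1. ATF3 had, in FPKM, 23.0 and 17.4 (HepG2 WT), 10.99 and 4.341 (HepG2 SR), 17.0 and 65.8 (Huh7 WT) and 4.08 and 19.7 (Huh7 SR). FOSL2, JUN, JUNB, IER2 and ATF3, 5 of the 10 and named after their values were seen, were lower in all 4 pairs. Of all genes tested 12.4% were, and the replicate block called 4.41% in Huh7 and 9.95% in the average, higher or lower. Shares for the fit without the 3 libraries that stand apart are given with DUSP5 above.

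Of 13 other ERK target genes 11 were tested, and growth factor ligands were among those called. AREG, the EGF receptor ligand amphiregulin, fell in Huh7 from 142 and 93.9 FPKM to 42.2 and 20.9 FPKM (-1.92, standard error 0.79). The HepG2 WT libraries had 16.8 and 23.9 FPKM of AREG and the SR libraries 12.5 and 1.52 FPKM, and in the average it fell by 1.89 (standard error 0.56), a call kept without each library in turn. HBEGF, a further ligand of that receptor, fell by 1.003 in the average (standard error 0.39), from between 2.32 and 7.39 FPKM in the WT libraries to between 1.097 and 2.271 FPKM in the SR libraries. All SR libraries were thus narrowly below all WT libraries, as for 2.17% of all genes tested. TRIB1, a pseudokinase that binds MEK, fell in HepG2 from 56.0 and 52.1 FPKM to 21.0 and 4.81 FPKM (-2.28, standard error 0.83) and by 1.65 in the average (standard error 0.59). HMGA2, an architectural chromatin protein, rose in Huh7 from 23.6 and 19.0 FPKM to 32.1 and 66.2 FPKM (1.09, standard error 0.41) and was 0.58 without Huh7 SR replicate 2, where the call was lost. AREG and HMGA2 lost their Huh7 calls without either HepG2 WT library, either Huh7 WT library or Huh7 SR replicate 2, with AREG between -2.22 and -1.43. CCND1, cyclin D1, had log2 fold changes of -1.03 (standard error 0.71) in HepG2 and 0.32 (standard error 0.71) in Huh7 and was not called.

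Counted by list, TRIB1 was the 1 of 11 target genes called in HepG2, and AREG and HMGA2 were the 2 called in Huh7. AREG, TRIB1 and HBEGF were the 3 called in the average, all lower. The list medians were -1.03, -0.76 and -0.83. Of all genes tested 2.14%, 1.87% and 3.93% were called in these comparisons, with 2.03% called lower in the average. With the replicate block 6 of 11 were called lower in HepG2, where 5.85% of all genes were. These were AREG, TRIB1, HBEGF, CCND1, the receptor EPHA2 and the cytokine LIF, and EPHA2 was added to the 3 in the average. In Huh7 the block added EREG, the ligand epiregulin, as lower. It called 4.41% of all genes in Huh7 and 9.95% in the average, higher or lower. Without the 3 libraries that stand apart, TRIB1 was called lower in HepG2, and AREG, EREG, TRIB1, HMGA1 and PLAUR were called lower and HMGA2 higher in Huh7. In the average of that setting AREG, TRIB1, HBEGF and PLAUR were called lower and HMGA2 higher. Shares of all genes called in that setting are given with DUSP5 above. With all libraries and no block, the adjusted p of all genes named here was at least 0.956 from limma in these 3 comparisons. Genes called only with the block or without the 3 libraries were named after their values were seen, CCND1, EGR1 and FOS excepted. HBEGF lost its call without HepG2 WT replicate 1, either HepG2 SR library, Huh7 WT replicate 2 or either Huh7 SR library, with values between -1.12 and -0.67. TRIB1 lost its HepG2 call without either HepG2 WT library or HepG2 SR replicate 2, where it was -1.32. In the average TRIB1 lost it without either HepG2 WT library, HepG2 SR replicate 2, Huh7 WT replicate 2 or Huh7 SR replicate 1, with values between -1.67 and -1.17. ATF3 lost it without the same 5 libraries, with values between -1.67 and -1.07.

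**Figure D5:**
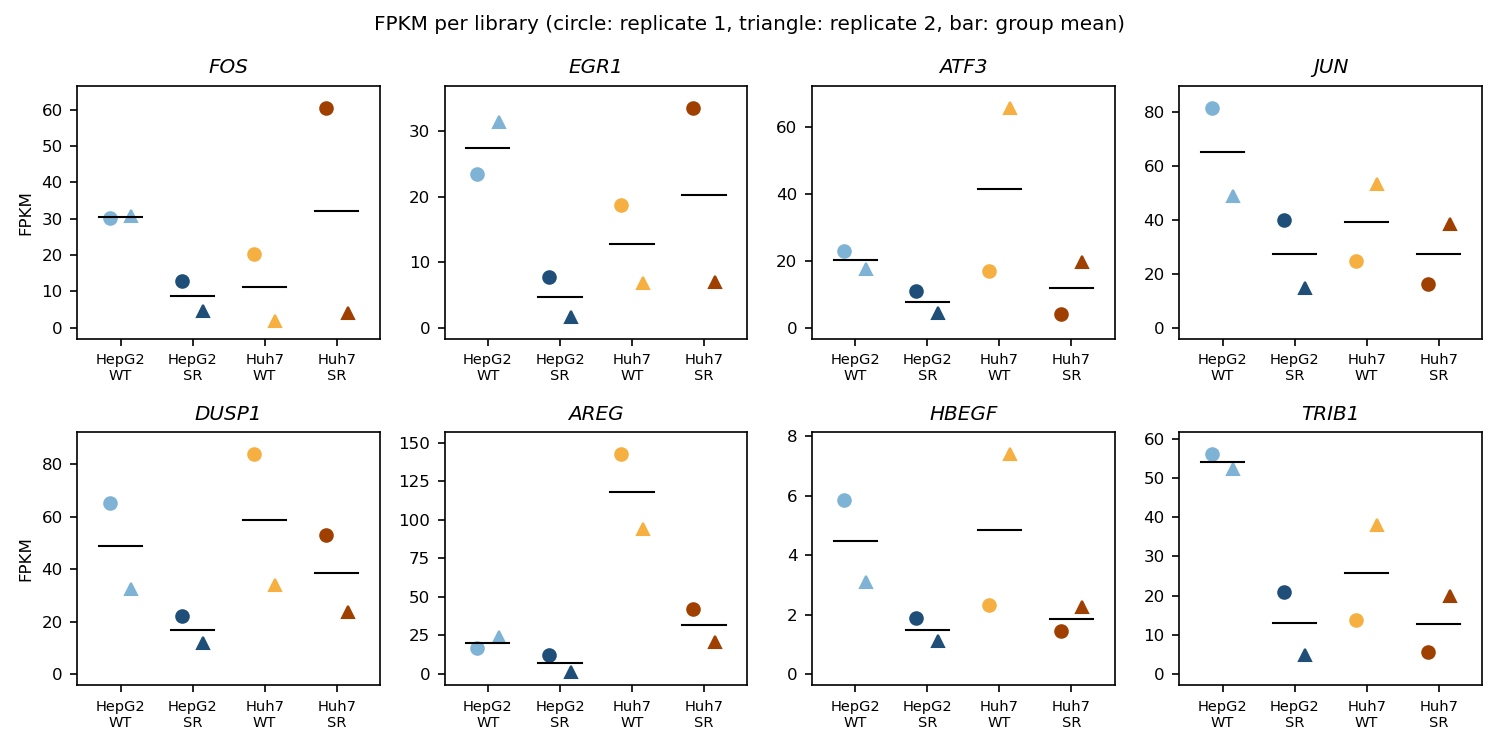
FPKM (y axis, linear) of 8 genes of the pathway lists in the 4 groups (x axis), with circles for replicate 1, triangles for replicate 2 and bars for group means. HBEGF has all SR libraries at or below 2.27 FPKM and all WT libraries at or above 2.32 FPKM. Of all genes tested 2.17% had all SR libraries below all WT libraries. FOS in Huh7 spans 1.68 to 60.5 FPKM.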

How the data were processed

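Polyadenylated RNA of 8 libraries was prepared with an NEBNext Ultra kit. The authors deposited FPKM per gene and library, without pooling. Per the submitters' processing notes, fastp 0.20.0 and GRCh38 were used. The aligner, quantification tool, annotation and strand setting are not given in the sources used here. Of 63241 identifiers, 62666 had a symbol. Positions came from GENCODE 29, which lacks 5013 of the identifiers and so is not the annotation of the values.

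The study's own test needs counts. Read counts were not recovered, since only 6.44% to 12.5% of low values came within 0.02 of whole reads, with 4% set by chance alone. limma 3.58.1 in R 4.3.3 was therefore fitted to log2(FPKM + 1), with trend, for the 15173 genes that reached 1 FPKM in 2 or more libraries. The model had a mean for each of the 4 groups, 4 residual degrees of freedom and Benjamini-Hochberg adjustment over all genes. Calls used the study's thresholds.

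The members and lists were chosen with earlier results of these data known. Named by rule were the 10 members, up to 3 called genes per pathway list and comparison with the largest change, and a few fixed genes that include FOS, EGR1, CCND1, MAPK3 and BRAF, 26 genes in all, some of which are not reported here. Marker lists covered hepatocyte, biliary, mesenchymal, endothelial and leukocyte genes.

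Deviations of WT and SR libraries with the same number correlated across genes at r = 0.125 in HepG2 and 0.796 in Huh7. All 4 pairs were treated as paired, a decision from the data and not from the labels. The HepG2 value is low and gives little ground for pairing there. In Huh7 both libraries of replicate 1 are among those that stand apart. The main fit does not use the pairs. A fit with a replicate block, which does, is given where it changes a call of a gene reported here. On simulated data with 15173 genes, the averaged comparison called 87% of genes changed by 2 on the log2 scale and 46% of them after adjustment. In HepG2 and Huh7, 15% and 18% of such genes passed after adjustment. The noise was independent between genes and no library stood apart, so these shares need not hold for the real libraries. Alternatives were another pseudocount (0.1), no filter, rescaling to a common sum (TPM), quantile normalization, separate fits, the block, no trend, the adjusted p and each library left out. Leaving out the 3 libraries that stand apart was chosen after seeing the data. Figures were drawn with Python 3.11.15 and matplotlib 3.10.9.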

Additional observations from a re-analysis of the deposited data

Results flagged for a closer look

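The change from WT to SR was set side by side in the cell lines for the 26 genes named by rule and for FOSB, SOS2, DUSP1, JUN and JUNB. Other genes named in the text were not screened. By the 2 rules described here, the change was flagged in 4 pathway genes and in 0 of the 10 members. EGR1 passed the interaction test before adjustment, with a difference (Huh7 minus HepG2) of 2.98 in log2 fold change (standard error 1.25, adjusted p = 0.9998 from limma), being lower in both HepG2 pairs and higher in both Huh7 pairs, by 0.81 and 0.02 in the latter. PEBP1 also passed it, with a difference of 1.66 (standard error 0.67, adjusted p = 0.9998), with an HepG2 value of -0.26 and an Huh7 value of 1.40. FOS had a difference of 3.03 (standard error 1.93, adjusted p = 0.9998 from limma), and FOSB, named after its values were seen, had one of 2.85 (standard error 1.64, adjusted p = 0.9998 from limma). Neither passed the test, and both are given because both HepG2 pairs were lower in SR and both Huh7 pairs higher. Of all genes tested 0.606% were called for the interaction, while the share with such opposite signs was not computed. IER3, HRAS and KRT19, which were not screened, had the same signs in the pairs as FOS, and MAP2K2 and PECAM1 had the reverse.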

How the results depend on the processing

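With 2 libraries per group and 3 of 8 standing apart, single libraries set many values. The median SD of a gene from limma was 0.48 on the log2 scale, close to the calling threshold of 0.5. Detection of changes near a log2 of 0.5 was not simulated. Members called by limma in HepG2 were 0, and 2 with the replicate block (FOSL1 and PHLDA1). In Huh7 they were 0, 1 with each line fitted alone (DUSP5), 1 with the block (FOSL1) and 2 without the 3 libraries apart (DUSP5 lower, DUSP6 higher). In the average there was 1, and 0 with a pseudocount of 0.1, 0 without the filter, 0 by adjusted p and 2 with the block. Without the 3 libraries apart, DUSP5 and FOSL1 were also lower in the average, as given above. DUSP4 was below the filter level in all libraries left. In Huh7 versus HepG2 there were 0, and 1 without the filter. The count lower in all 4 pairs was 2, 3 after rescaling to a common sum and 1 with quantile normalization. Of all genes tested, 12.39%, 16.95% and 10.41% were lower in these settings. Fits with 1 library left out leave 1 library in a group, so their counts of members called are not compared with these. Beyond FOSL1 and PHLDA1 in HepG2 and the average and FOSL1 in Huh7, the block changed no member's call. All genes called with the block were 1392, 669 and 1509, against 325, 283 and 596. Huh7 fitted alone had 124, and Huh7 versus HepG2 without the filter had 825 of 46423. Shares for the fit without the 3 libraries apart are given with DUSP5 above.

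Some members changed sign between settings, in part in fits that leave 1 library in a group, and the cause was not tested. In HepG2, DUSP4 was -0.043 with a pseudocount of 0.1, ETV5 was -0.071 after rescaling to a common sum, and SPRY2, SPRED1 and ETV4 were 0.029, 0.029 and -0.012 with quantile normalization. Without the 3 libraries apart, HepG2 values were -0.51 for DUSP4, -1.95 for DUSP5, -0.21 for DUSP6 and 0.11 for SPRY2, and Huh7 values were 0.082 for SPRY4 and 0.049 for SPRED1. With 1 library left out, HepG2 values ran from -0.51 to 0.87 for DUSP4, -1.95 to 3.88 for DUSP5, -0.21 to 0.96 for DUSP6, -0.25 to 0.11 for SPRY2, -0.45 to 0.29 for SPRED1 and -0.26 to 0.32 for ETV5. Huh7 values ran from -3.17 to 1.004 for DUSP4, -0.19 to 1.12 for DUSP6, -0.45 to 0.038 for SPRY2, -0.48 to 0.00442 for SPRY4, -0.97 to 0.025 for SPRED1, -1.59 to 0.49 for ETV5 and -1.07 to 0.076 for PHLDA1. Averaged values ran from -1.50 to 0.59 for DUSP4, -2.11 to 0.81 for DUSP5 and -0.78 to 0.26 for ETV5. Rescaling moved the median of all genes to -0.12 in HepG2 and -0.14 in Huh7.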
